A study of Homo sapiens with 5 samples.

Results

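The genes described here are transcription factors that direct the differentiation of epithelial cells. The list held 10 genes, chosen by name: EHF, ELF3, ZNF750, GRHL1, GRHL2, GRHL3, OVOL1, OVOL2, KLF4 and KLF5. Of these, 9 had a named probe set among the 14812 named genes of the table, and ELF3 did not and was not analysed. TE7 is a human cell line from an esophageal carcinoma. Its cells were transduced with pMIRNA1-puro-control or with pMIRNA1-puro-CDH26, which expresses the human cadherin CDH26, and single cells were expanded to confluence as clones. Total RNA from 2 control clones and 3 CDH26 clones, each after 24 h in RPMI with 1.8 mM calcium, was measured on 1 Affymetrix Gene 2.0 ST array per clone. Every sample is thus 1 clone of 1 line, so that array error and clone-to-clone variation both enter the spread within a group.

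Each value below is a log2 value relative to the control mean, on which the authors centred every probe set. Only differences among clones are kept, so whether a gene is abundant or near background in TE7 cannot be read from them, nor can the squamous or columnar character of the line. In bulk RNA, fewer cells that express a gene and less RNA per cell cannot be told apart. The CDH26 transcript itself was at 0.01 and −0.01 in the controls and at 2.87, 3.01 and 2.63 in CDH26 clones 1, 2 and 3. Among all 14812 genes, 0 passed an adjusted p of 0.05 (limma, Benjamini-Hochberg), CDH26 included, while 1113 (7.51%) had an unadjusted p under 0.05. None of the differences below passed the adjusted threshold, and 0.1 is the smallest p that permuting 2 against 3 clones exactly allows. The precision of each value is limited by the 5 arrays.

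Stratified epithelia such as that of the esophagus renew from a basal layer, whose cells leave the cell cycle and mature as they move up. KLF5 is known from the proliferating basal layer and KLF4 from the maturing layers above it, and ZNF750 acts with KLF4 to switch on genes of terminal differentiation. The grainyhead-like factors GRHL1, GRHL2 and GRHL3 maintain junction and barrier genes, EHF and ELF3 are ETS factors restricted to epithelia, and the zinc finger repressors OVOL1 and OVOL2 keep mesenchymal regulators such as ZEB1 low.

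In the CDH26 clones EHF, KLF4 and ZNF750 had mean values higher by 1.18, 0.64 and 0.55 log2 units. For each of them the groups did not overlap. KLF5 also separated the groups, by 0.01, and GRHL2 was the 1 gene in which all CDH26 clones lay below both controls, at a mean difference of −0.13. GRHL1, GRHL3, OVOL1 and OVOL2 overlapped between groups. The mean was higher in 7 of 9 factors and lower in 2, where 47.9% and 49.5% of all named genes were. Every CDH26 clone was therefore above both controls in 4 of 9 factors, where the share over all named genes was 8.98%, and below both in 1 of 9, where it was 9.93%. An unadjusted p under 0.05 was reached by 3 factors with a higher mean, against 3.51% of all genes. It was reached by 1 factor with a lower mean, against 4%. All 9 factors had a different value on each array, as did only 6857 of the 14812 genes. The shares of all genes, here and below, include genes with equal values on some arrays. They are therefore not like-for-like backgrounds for the factors, and shares among the 6857 genes alone are not given. The count above the controls used was 7 without control clone 2 and 4 when any other clone was left out. The count below was 2 without control clone 1, where OVOL1 joined GRHL2. With a control left out only 1 control value has to be passed. Shares of all genes with a clone left out are not given, so these counts have no background beside them. Which factors had a higher mean and an unadjusted p under 0.05 depended on the clones used. It was KLF5 alone without control clone 1, ZNF750, GRHL1, GRHL3 and OVOL1 without control clone 2, and ZNF750 and KLF4 without CDH26 clone 1. It was 0 factors without CDH26 clone 2, and EHF and KLF4 without CDH26 clone 3. GRHL2 kept an unadjusted p under 0.05 only when CDH26 clone 3 was the one left out, and OVOL1 was the 1 factor with a lower mean and such a p without control clone 1.

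**Figure D1:**
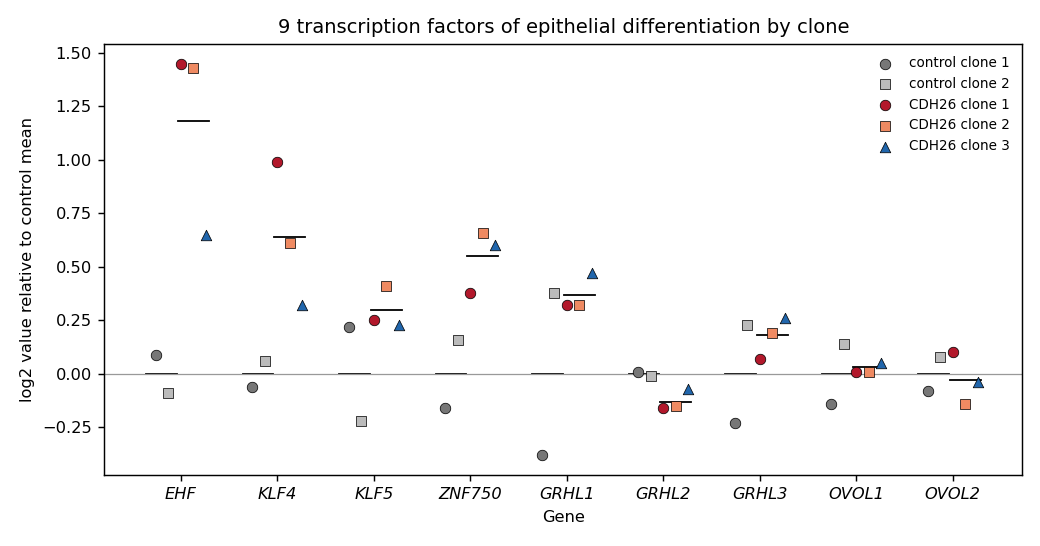
Log2 value relative to the control mean (vertical axis) of the 9 factors (horizontal axis) in each of the 5 clones, 1 point per clone, with short lines at the group means. EHF and KLF4 lie clear of the controls in all CDH26 clones, EHF at 0.65 to 1.45, while in GRHL1 the control clones, at −0.38 and 0.38, span most of the CDH26 clones.

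EHF, an ETS-domain factor of differentiated epithelial cells, stood furthest apart. Its value was 1.45 in CDH26 clone 1, 1.43 in clone 2 and 0.65 in clone 3, against 0.09 and −0.09 in control clones 1 and 2. The first pair of CDH26 clones nearly coincided, clone 3 was lower than both, and the lowest CDH26 value was 0.56 above the higher control. The CDH26 mean was 1.18 ± 0.46 (SD, n = 3) and the difference 1.18 ± 0.31 (SE; 95% interval 0.31 to 2.04), a 2.26-fold difference (limma, unadjusted p = 0.0197, adjusted p = 0.626). Only 51 of the 14812 genes, EHF included, had a difference as high. The difference was 1.04 to 1.44 when each clone was left out in turn.

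EHF has 2 start sites in the promoter table of RefSeq on GRCh38.p14, and windows of 300 bases, from 250 before to 50 after each start, are shown because EHF differed most among the factors. Capitals in these windows and those further below mark matches on either strand to the letters CACCC (KLF factors), GGAAG (ETS factors), AACCNGTT (grainyhead factors), CCNNAGGC (ZNF750) or CCGTTA (OVOL factors). The upstream window, chr11:34624007-34624306 on the + strand, held 5 matches to CACCC and none to the other letters, and the downstream window, chr11:34632316-34632615 on the + strand, held 0 matches to any of them.
EHF upstream start: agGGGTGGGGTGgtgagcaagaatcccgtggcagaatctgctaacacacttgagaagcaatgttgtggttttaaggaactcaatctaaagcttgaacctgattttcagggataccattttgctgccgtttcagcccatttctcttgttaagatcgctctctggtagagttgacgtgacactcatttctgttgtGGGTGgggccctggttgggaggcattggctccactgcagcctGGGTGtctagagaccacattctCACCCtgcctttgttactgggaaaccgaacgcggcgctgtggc
EHF downstream start: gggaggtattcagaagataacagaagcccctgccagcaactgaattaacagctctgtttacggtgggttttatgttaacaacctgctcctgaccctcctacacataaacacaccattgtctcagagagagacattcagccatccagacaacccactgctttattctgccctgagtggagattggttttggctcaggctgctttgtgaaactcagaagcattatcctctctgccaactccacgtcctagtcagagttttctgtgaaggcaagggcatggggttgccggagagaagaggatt

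Over all 35116 promoter windows of that length, 59.9% held CACCC, 71.9% held GGAAG, 1.73% held AACCNGTT, 27.5% held CCNNAGGC and 3.07% held CCGTTA, so the letters of the KLF, ETS and ZNF750 motifs are common in promoters at large. A match describes the sequence and is not a bound site. No matches to different motifs overlapped in the windows shown.

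Across the ETS family EHF had the highest difference of 22 measured genes. The other 21 had a median of 0.01. In 5 of them all CDH26 clones lay above both controls (23.8%, against 8.98% of all genes) and in 2 below (9.52%, against 9.93%). ETV3, an ETS repressor, was at 0.52, 0.35 and 0.25 in CDH26 clones 1, 2 and 3 and at 0.06 and −0.06 in the controls, the highest of the others at 0.37 ± 0.10 (SE). ERG and ETS2 differed by 0.35 ± 0.13 and 0.27 ± 0.11. ETV3, ERG and ETS2, and 3 genes from each list below, are named for having the smallest unadjusted p in these data. In the other direction ETV4, chosen after its value was seen, was at −1.15, −0.86 and −0.50 against −0.49 and 0.49, a difference of −0.84 ± 0.39 in which clone 3 all but met control clone 1. ELF5, an epithelial ETS gene and the neighbour of EHF on one side, was at −0.07, −0.05 and −0.05 against −0.05 and 0.05. APIP, its neighbour on the other side, was at −0.11, −0.11 and −0.07 against 0.18 and −0.18. Neither neighbour had the high values of EHF.

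KLF4, a zinc finger factor required for the epidermal barrier, was at −0.06 and 0.06 in the controls and at 0.99, 0.61 and 0.32 in CDH26 clones 1, 2 and 3. The CDH26 clones were spread over 0.67 log2 units, with clone 1 highest and clone 3 lowest, and the lowest lay 0.26 above the higher control. The difference was 0.64 ± 0.23 (SE; 95% interval 0.01 to 1.27), a 1.56-fold difference (limma, unadjusted p = 0.0489, adjusted p = 0.626), and 0.46 to 0.80 when each clone was left out. A difference as high was found in 1.28% of all genes.

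KLF5, the relative of KLF4 known from basal cells, was at 0.25, 0.41 and 0.23 in the CDH26 clones and at 0.22 and −0.22 in the controls. CDH26 clones 1 and 3 were almost level with control clone 1, and control clone 2 lay below all other clones. The difference was 0.30 ± 0.16 (SE; 95% interval −0.16 to 0.75; limma, unadjusted p = 0.141, adjusted p = 0.626). Leaving out control clone 2 gave 0.07 and leaving out control clone 1 gave 0.52. Whether KLF4 and KLF5 differed from each other was not tested.

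The window of KLF4 and the downstream window of KLF5, the one of its 2 with the more matches, are shown to set these paralogues side by side. That of KLF4, chr9:107489720-107490019 on the − strand, was 69% G and C and held 3 matches to GGAAG and 1 to CCNNAGGC. That of KLF5, chr13:73058755-73059054 on the + strand, was 71.3% G and C and held 2 matches to CACCC and 2 to CCNNAGGC.
KLF4: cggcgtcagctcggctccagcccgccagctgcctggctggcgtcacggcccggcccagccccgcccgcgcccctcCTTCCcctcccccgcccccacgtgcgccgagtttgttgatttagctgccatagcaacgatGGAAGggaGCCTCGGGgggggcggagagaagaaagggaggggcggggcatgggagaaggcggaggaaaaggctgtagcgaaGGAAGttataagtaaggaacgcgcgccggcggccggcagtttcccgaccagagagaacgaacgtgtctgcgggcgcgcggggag
KLF5 downstream start: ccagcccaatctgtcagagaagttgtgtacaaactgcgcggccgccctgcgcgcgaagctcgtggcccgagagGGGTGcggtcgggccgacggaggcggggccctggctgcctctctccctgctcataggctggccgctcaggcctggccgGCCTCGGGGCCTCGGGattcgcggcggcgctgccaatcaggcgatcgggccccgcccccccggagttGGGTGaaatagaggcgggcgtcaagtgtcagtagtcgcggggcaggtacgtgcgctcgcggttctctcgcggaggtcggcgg

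Among the 26 measured KLF and SP genes KLF4 ranked 2 and KLF5 ranked 5 by difference. The other 24 had a median of −0.01, with 12 higher and 12 lower in mean. All CDH26 clones were above both controls in 4 of them (16.7%, against 8.98% of all genes) and below in 2 (8.33%, against 9.93%). The highest was SP8, at 1.43, 0.83 and −0.24 in the CDH26 clones against −0.27 and 0.27, so clone 3 lay between the controls. SP4 was at 0.79, 0.48 and 0.20 against values of 0.00 in both controls. KLF7 and KLF10 differed by 0.19 ± 0.07 (SE) and 0.14 ± 0.07. KLF12, the neighbour of KLF5, had the lowest difference of the family, −0.74 ± 0.40, with control clones at −0.61 and 0.61. SP8 and KLF12 were singled out after their values were seen.

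ZNF750, a nuclear regulator of epidermal differentiation that is mutated in some esophageal squamous carcinomas, was at 0.38, 0.66 and 0.60 in CDH26 clones 1, 2 and 3. It was at −0.16 and 0.16 in control clones 1 and 2. Here clone 1 was the lowest of the CDH26 clones, unlike in EHF and KLF4, and it lay 0.22 above control clone 2. The difference was 0.55 ± 0.15 (SE; 95% interval 0.14 to 0.96), a 1.46-fold difference (limma, unadjusted p = 0.0206, adjusted p = 0.626), and ranged from 0.39 without control clone 1 to 0.71 without control clone 2. A difference as high was found in 1.82% of all genes. In RefSeq the gene overlaps TBCD, a tubulin folding cofactor, and TBCD was at −0.49, −0.41 and −0.12 in the CDH26 clones against −0.07 and 0.07, a difference of −0.34 ± 0.14 in the other direction.

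The 3 grainyhead-like factors had mean differences of both signs. GRHL1, which controls desmosomal cadherin genes, was at 0.32, 0.32 and 0.47 in the CDH26 clones and at −0.38 and 0.38 in the controls. The CDH26 clones were close together, within 0.15, and only clone 3 exceeded control clone 2. The difference was 0.37 ± 0.25 (SE; 95% interval −0.34 to 1.08). It was −0.01 when control clone 1 was left out and 0.74 when control clone 2 was, so its size depends on the control clone used.

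GRHL3, which is needed for skin barrier formation, had the same control order, at −0.23 and 0.23, with 0.07, 0.19 and 0.26 in CDH26 clones 1, 2 and 3. Again only clone 3 was above both controls. The difference of 0.18 ± 0.16 (SE; 95% interval −0.28 to 0.63) became −0.05 without control clone 1.

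GRHL2, which sustains E-cadherin and claudin expression, was at −0.16, −0.15 and −0.07 in the CDH26 clones and at 0.01 and −0.01 in the controls. The controls were nearly equal, and every CDH26 clone lay below them by at least 0.06. The difference, −0.13 ± 0.04 (SE; 95% interval −0.23 to −0.02; limma, unadjusted p = 0.0318, adjusted p = 0.626), was small, and 32.8% of all genes lay at least as far from 0. It stayed between −0.16 and −0.11 when each clone was left out.

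The related CP2 factors TFCP2, UBP1 and TFCP2L1 differed by 0.06 ± 0.04, −0.02 ± 0.07 and −0.03 ± 0.34 (SE), and in 0 of these 3 did the groups separate. OVOL3 was not analysed here.

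OVOL1, a repressor that helps keratinocytes leave the cell cycle, was at 0.01, 0.01 and 0.05 in the CDH26 clones and at −0.14 and 0.14 in the controls. All CDH26 clones fell between the controls, at a difference of 0.03 ± 0.10 (SE; 95% interval −0.24 to 0.29). It is the 1 factor with 2 probe sets. The first had 0.00, 0.00 and 0.02 against −0.26 and 0.26, and the second 0.02, 0.03 and 0.08 against −0.03 and 0.03, so the control spread came from the first. OVOL1 was at −0.12 without control clone 1.

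OVOL2, which represses ZEB1, was at 0.10, −0.14 and −0.04 in the CDH26 clones and at −0.08 and 0.08 in the controls. CDH26 clone 1 lay above both controls and clone 2 below both, at a difference of −0.03 ± 0.10 (SE; 95% interval −0.30 to 0.25).

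**Figure D2:**
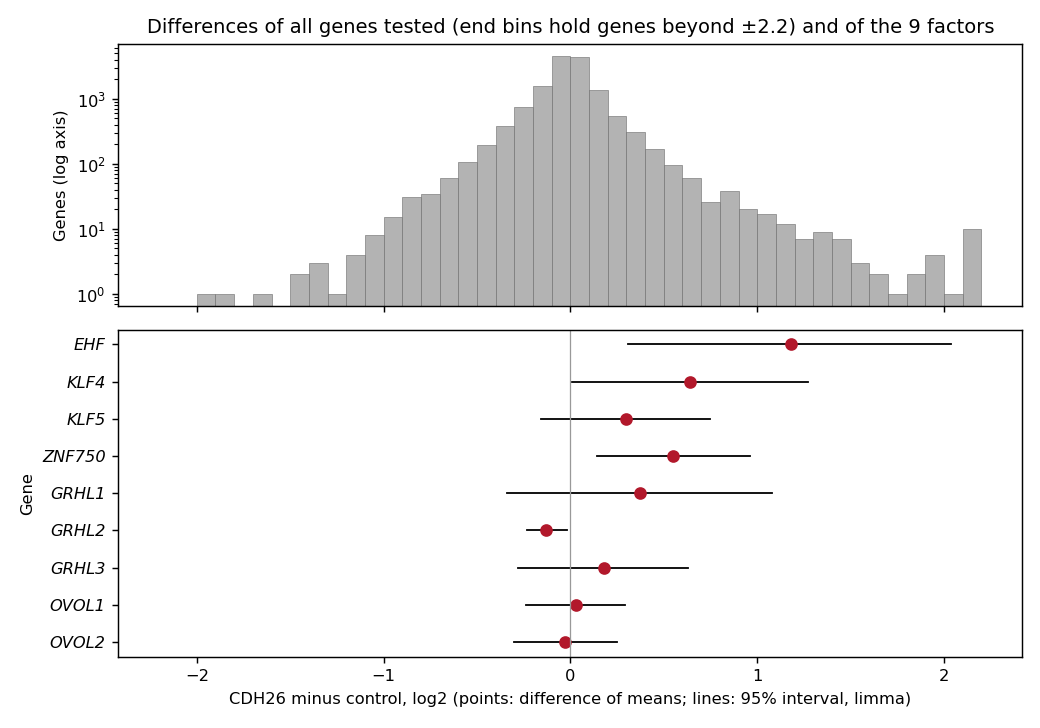
Above, the distribution of the difference CDH26 minus control (log2) over 14812 genes, with gene counts on a log axis; below, the same difference for each of the 9 factors as a point with its 95% interval from limma. EHF, at 1.18, lies in the sparse right tail, and the intervals of EHF, KLF4, ZNF750 and GRHL2 lie on one side of 0.

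Clone by clone, 5, 4 and 6 of the 9 factors were above both controls in CDH26 clones 1, 2 and 3, against 31.1%, 25.1% and 23% of all genes, and 1, 2 and 1 were below both, against 28.8%, 28.7% and 26.7%. The 4 factors shared by all CDH26 clones were EHF, ZNF750, KLF4 and KLF5. CDH26 clone 1 added OVOL2, and clone 3 added GRHL1 and GRHL3. At least 0.5 above the control mean were EHF and KLF4 in clone 1 (2.92% of all genes were), EHF, KLF4 and ZNF750 in clone 2 (3.23%), and EHF and ZNF750 in clone 3 (1.15%). EHF was thus the 1 factor at that distance in all CDH26 clones. Control clone 1 was lower than control clone 2 in 6 factors and higher in EHF, GRHL2 and KLF5.

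The median over the 9 factors was −0.08 and 0.08 in the controls and 0.25, 0.32 and 0.26 in CDH26 clones 1, 2 and 3. Their median difference was 0.30, where that of all genes was 0.00. Leaving out control clone 1 brought it to −0.01, and leaving out control clone 2 to 0.40. In 5 of the 9 factors, KLF5, GRHL1, GRHL3, OVOL1 and OVOL2, the control clones differed from each other by more than the group means did.

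**Figure D3:**
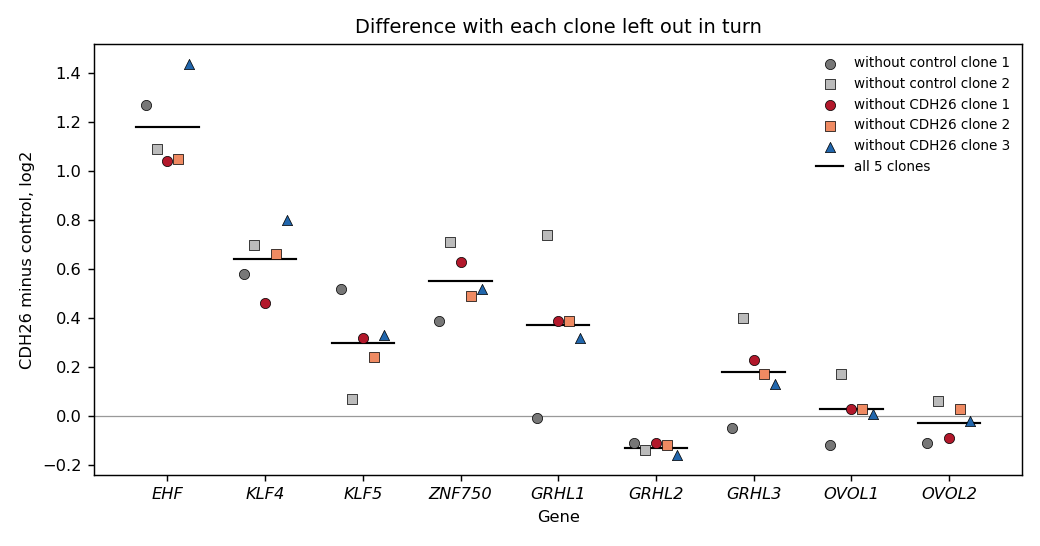
Difference CDH26 minus control (log2, vertical axis) of the 9 factors with each clone left out in turn, 1 point per clone left out, and with all 5 clones as a line. EHF stays between 1.04 and 1.44, while GRHL1 runs from −0.01 to 0.74 depending on which control clone is left out.

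Genes with the most similar values over the 5 clones were found by the root mean square difference from each factor that spanned at least 0.5 log2 units. For EHF they were GPR37 (0.111), an orphan receptor, BDKRB1 (0.142), the bradykinin B1 receptor, and AASS (0.149), an enzyme of lysine breakdown. GPR37 was at 1.31, 1.39 and 0.53 in the CDH26 clones and −0.02 and 0.02 in the controls, with the same lower clone 3. For KLF4 they were the matrix metalloproteinase MMP28 (0.079), ADAMTSL4 (0.0855) and CUL9 (0.0918), each highest in CDH26 clone 1 and lowest in clone 3. For ZNF750 they were WBP2 (0.0766), MIR24-2 (0.0785) and RBM43 (0.0937), and for GRHL1 STING1 (0.0894), ADGRF4 (0.0975) and TEAD2 (0.106). ATG5 (0.013), C4orf33 (0.0144) and NDC80 (0.0146) were closest to KLF5. Within 0.15 lay 3 genes for EHF, 12 for ZNF750, 19 for KLF4, 21 for GRHL1 and 811 for KLF5, so the pattern of KLF5 over the clones was a common one. These are likenesses over 5 arrays that share a centring on the controls. The genes were picked by these same values, so a clone order shared with the factor follows from the choice.

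Of 46 other transcription factors of squamous or simple epithelium, 31 were measured, with a median difference of 0.05. The mean was higher in 20 and lower in 10. All CDH26 clones were above both controls in 4 (12.9%, against 8.98% of all genes) and below in 4 (12.9%, against 9.93%). FOXA2, a factor of foregut and glandular epithelium, was at 0.30, 0.17 and 0.31 against −0.07 and 0.07 (0.26 ± 0.07, SE), and GATA6, of columnar epithelium, at −0.46, −0.42 and −0.34 against −0.19 and 0.19 (−0.41 ± 0.13). HES5, a Notch target, differed by −0.16 ± 0.07. SOX2, a foregut and squamous regulator chosen after its values were seen, had the highest difference, 1.30 ± 0.68, but its control clones were at 1.02 and −1.02 and the CDH26 clones at 1.13, 1.46 and 1.32, near control clone 1.

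Factors of epithelial-mesenchymal transition, which oppose the OVOL and grainyhead genes, lay near 0. The 12 measured of 14 had a median of −0.03, with 0 at 0.5 or beyond in either direction. All CDH26 clones were above both controls in 1 (8.33%, against 8.98% of all genes) and below in 3 (25%, against 9.93%). SNAI1 was at −0.27, −0.22 and −0.22 against −0.21 and 0.21, level with control clone 1. SNAI2 differed by −0.07 ± 0.04 (SE) and GSC by 0.13 ± 0.07.

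Adhesion and barrier genes linked to grainyhead-like and OVO-like factors had a median of −0.04 over the 26 measured of 35. All CDH26 clones lay above both controls in 4 (15.4%, against 8.98% of all genes) and below in 1 (3.85%, against 9.93%). ESRP2, an epithelial splicing regulator, was at 0.16, 0.08 and 0.16 against 0.04 and −0.04 (0.13 ± 0.04, SE). The desmosomal linker DSP was at 0.40, 0.38 and 0.24 against 0.16 and −0.16 (0.34 ± 0.12), and S100A14 differed by 0.57 ± 0.22.

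Genes of terminal squamous differentiation were listed by name as downstream of KLF4, ZNF750 and GRHL3, and their regulation by these factors in TE7 was not tested. They had a median of 0.03 over the 71 measured of 91. Most were close to 0, while 10 were higher by at least 0.5 and 0 lower by as much, against 2.13% and 1.82% of all genes. When control clone 2 was left out 6 were higher and 1 lower by as much, and 2 were lower when control clone 1 was. All CDH26 clones lay above both controls in 6 of the 71 (8.45%, against 8.98% of all genes) and below in 2 (2.82%, against 9.93%). Of the 10, CSTA, ECM1, KRT10, KRT13, LYPD3 and S100A8, named after their values were seen, overlapped between groups. SCEL, the cornified envelope protein sciellin, was at 0.86, 1.41 and 0.73 against 0.07 and −0.07, a difference of 1.00 ± 0.24 (SE). The kallikreins KLK11 and KLK10 were at 1.03, 0.62 and 0.34 and at 0.79, 0.57 and 0.27 in CDH26 clones 1, 2 and 3. They differed by 0.66 ± 0.26 and 0.54 ± 0.23. Their controls were at 0.17 and −0.17 for KLK11 and at 0.23 and −0.23 for KLK10, whose clone 3 lay only 0.04 above control clone 1. Both were lowest in clone 3, where 1.15% of all genes were at least 0.5 above the control mean, against 2.92% in clone 1. SPRR1B, a cornified envelope precursor chosen after its values were seen, had the highest difference, 2.14 ± 0.96, at 1.86, 3.73 and 0.84 against 0.03 and −0.03. Involucrin (IVL), another envelope precursor, was at 0.03, 0.03 and 0.07 against −0.02 and 0.02.

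**Figure D4:**
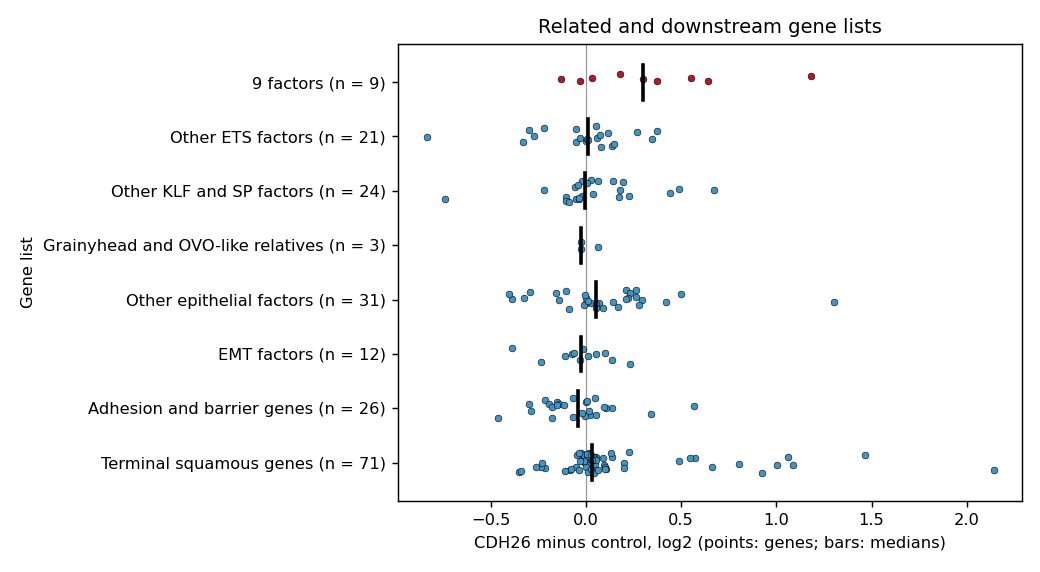
Difference CDH26 minus control (log2, horizontal axis) of each measured gene in the 9 factors and in 7 related or downstream lists, with a bar at each median; vertical scatter within a list has no meaning. The lists of other genes have medians from −0.04 to 0.05, and the terminal squamous genes have a tail to 2.14.

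Markers of cell types were examined beside these values. The 8 measured of 17 basal squamous markers were each higher on average with CDH26; their median was 0.57 in CDH26 clone 1, 0.62 in clone 2, 0.50 in clone 3 and 0.18 and −0.18 in the controls. Their median difference was 0.53, or 0.25 if control clone 2 was left out. Among them KRT14, SFN and DSG3, named for the smallest unadjusted p, differed by 2.72 ± 0.43, 0.63 ± 0.11 and 1.00 ± 0.36 (SE). The controls of DSG3 were at 0.45 and −0.45. The 8 measured of 10 suprabasal markers had a median difference of 0.08 (0.56 among those whose 5 values all differed). The mean was higher in 6 of them and lower in 2, with KRT1 at 0.20 ± 0.09, KRT13 at 0.92 ± 0.55 and IVL at 0.04 ± 0.03. KRT13 overlapped between groups, at 0.79, 1.07 and 0.92 in the CDH26 clones against 0.83 and −0.83. Columnar markers, 13 of 19, had a median of 0.03, with KRT19 at 0.35 ± 0.11, KRT7 at −0.41 ± 0.18 and AGR2 at 0.60 ± 0.33. Mesenchymal markers, 6 of 15, had a median of −0.06 (0.06 if control clone 2 was left out), although LUM differed by 1.59 ± 0.42 and TAGLN by −1.00 ± 0.52, with THY1 at −0.16 ± 0.10. TAGLN overlapped between groups, at −1.20, −1.26 and −0.55 in the CDH26 clones against −0.69 and 0.69. Leukocyte markers, 4 of 11, had a median of 0.05; CD68, also a lysosomal gene of many cells, differed by 1.07 ± 0.33, CD14 by −0.04 ± 0.04 and TYROBP by 0.09 ± 0.13. Endothelial markers, 4 of 7, had a median of −0.01, with ESAM at −0.26 ± 0.15, VWF at 0.01 ± 0.08 and KDR at −0.02 ± 0.10. The part of the basal squamous markers in the values of EHF, KLF4 and ZNF750 was not tested.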

How the data were processed

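Per the labels, RNA of 5 TE7 clones, 1 clone per sample, was labelled with biotin and hybridised to Affymetrix Gene 2.0 ST arrays. The submitters' processing notes name Affymetrix Expression Console; how probes were summarised, and on which genome build, is not given in the sources used here. The deposited values are logarithms, taken here as log2 values although their base is not recorded, and each row was centred by the authors on its control mean (the largest absolute sum of the control values is 1e-06). No brightness is kept, so no filter on dim probes or background correction could be applied.

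Of 44607 probe sets, 15835 had 1 gene, 0 several and 28772 no name in the platform annotation. All 15835 names matched the current RefSeq symbol. Probe sets of a gene were averaged, which touched 651 of 14812 genes. Groups came from the labels. The test was limma 3.58.1 (R 4.3.3), two-sided, with lmFit, eBayes and group as the only term (Benjamini-Hochberg over all genes, threshold 0.05). The fit was tested on simulated data. Groups were called separate where all CDH26 values lay beyond both control values by more than 1e-05. Promoter sequences are from RefSeq (GRCh38.p14).

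The members and lists were chosen with earlier results of these data known. Named are all measured members, CDH26, from each list the 3 non-members with the smallest unadjusted p, and the 3 genes closest to each member spanning at least 0.5. Alternatives were weighted arrays, a trended robust variance, centring on array medians, a replicate block, single probe sets, genes with 5 different values, natural logarithms, a threshold of 0.1 and each clone left out. Counts of members at an unadjusted p under 0.05 and of terminal squamous genes beyond 0.5 were added after seeing the data.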

Additional observations from a re-analysis of the deposited data

How the results depend on the processing

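Over all alternatives 0 of the 9 factors passed the adjusted threshold, and 104 of 109 recomputed differences of single factors kept their direction. Centring on array medians, a trended robust variance, the genes with 5 different values and natural logarithms could not turn a direction. Nor could single probe sets for any factor but OVOL1, so part of the 104 was fixed in advance. The 5 that turned were GRHL1 (−0.01, up to 0.74 with another clone left out), GRHL3 (−0.05, up to 0.40) and OVOL1 (−0.12, up to 0.17) without control clone 1, and OVOL2, at −0.11 at its lowest, without control clone 2 (0.06) and without CDH26 clone 2 (0.03). The genes called over all genes were 1, CDH26, where only the 6857 genes whose 5 values all differed were tested (adjusted p = 0.0106), and 0 to 186 when each clone was left out, 186 without control clone 1; a lone control clone is assumed there to vary like the CDH26 clones. Factors with every CDH26 clone above the controls used numbered 4 to 7 and below 1 to 2 when each clone was left out. The shares of all genes under these settings are not given. Factors with a higher mean and an unadjusted p under 0.05 numbered 0 to 4 when each clone was left out; those with a lower mean numbered 0 to 1, and also 0 with a trended robust variance and among genes whose 5 values all differed. With weighted arrays and with the replicate block, 2 factors had a higher mean and an unadjusted p under 0.05. KLF4 was then at an unadjusted p of 0.0656 and 0.0591 (limma). The causes were not tested.

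The median over the 9 factors ran from −0.01 to 0.40 with each clone left out, that of other epithelial factors from 0.03 to 0.11, other ETS factors 0.00 to 0.04, other KLF and SP factors −0.03 to 0.06, grainyhead and OVO-like relatives −0.03 to 0.08, factors of epithelial-mesenchymal transition −0.04 to −0.01 and the adhesion and barrier genes −0.11 to 0.02. Among genes whose 5 values all differed the medians were 0.06 for other ETS factors, −0.04 for other KLF and SP factors, −0.07 for factors of epithelial-mesenchymal transition, 0.09 for terminal squamous genes, 0.56 for suprabasal and 0.02 for mesenchymal markers, fewer genes being tested. With single probe sets that of mesenchymal markers was 0.03, and that of basal markers ran from 0.25 to 0.78 with each clone left out. Array medians were 0, so centring on them changed no value. Read as natural logarithms, the difference of EHF would be 1.70. With the replicate number as a block EHF was at 1.44 (limma, adjusted p = 0.563) and 0 genes were called. No control shares the number of CDH26 clone 3, so that clone adds nothing to this difference, which was also 1.44 without it. Same-numbered clones had deviations correlated at −0.198 and −0.205 across genes. The deviations of the 2 controls mirror each other, so these values cannot decide whether the numbers pair the clones.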
